A study of Mus musculus with 12 samples.

Results

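The response compared here was the difference between arrays labelled plus and minus CMP, and the question was how that response changed in blood cells of mice without Stat5a and Stat5b. It was measured on all 12 arrays of the series, 1-colour Affymetrix mouse arrays in 4 groups of 3: controls minus, controls plus, Stat5a/b knockouts minus and Stat5a/b knockouts plus. The array titles come in 3 forms, here called sets A (CMPCTL and CMPKO), B (CC and KC) and C (CTLCMP and KOCMP), and each set holds 1 array of each group. For each gene the response of the control (plus less minus) was subtracted from the response of the knockout in the same set, which gave 3 values a gene, called response differences, and all 12 arrays entered.

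No label states the strain, age, sex, blood cell type, kind of knockout allele or number of mice, or whether the 3 arrays in a group are separate animals or cultures, so p-values reflect just the spread among these arrays, which may be technical. The treatment labels name CMP as something given, while the letters CMP stand in the titles of plus and minus arrays alike in sets A and C, so what the sign stands for is unsettled and the groups are called plus and minus. The treatment label of 1 array, the knockout minus of set B, calls it a control, but its title and its own Stat5a and Stat5b signals are those of the knockouts. It was kept as a knockout, and results were repeated with it as a control. The source label of the knockout plus array of set B opens with another number than those of its 3 set partners, and what that number stands for is not given.

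STAT5A and STAT5B are closely related transcription factors that wait in the cytoplasm, are phosphorylated by JAK kinases at cytokine receptors such as those for GM-CSF, IL-3, erythropoietin and thrombopoietin, and then enter the nucleus as dimers. There they switch on genes that include their own feedback inhibitors, Cish and the SOCS family, along with survival and growth genes. A response that needs STAT5 would be smaller in cells without it, whereas a response that runs through other routes would have the same size in both genotypes.

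Stat5a signals were 659.7 to 1436 on the 6 control arrays and 28.9 to 90.1 on the 6 knockout arrays. Stat5b signals were 1036 to 2177 on the control arrays and 7.28 to 82.8 on the knockout arrays, so the genotypes did not overlap for either gene. Stat5a and Stat5b were also the 2 genes that limma called between genotypes in the minus arrays (0.0189% of those tested) and the 2 called in the plus arrays (0.0189%). Their own response differences were 0.04 ± 0.41 and 0.22 ± 0.47 (log2, estimate ± SE of the fit, as for all such errors). Array medians of the signal were 59.7 to 114. The arrays carried high signals of myeloid progenitor genes, such as Mpo, a primary granule enzyme, at a mean of 25506. All 7 liver markers on the array lay below the level filter (a mean log2(signal + 32) of 6.76), as did 11 of 19 T and NK cell markers, Cd3e and Cd4 among them, and 10 of 14 B cell markers, Cd79a and Pax5 among them. Other lymphoid markers were well above it, with mean signals of 7706 for Ighm, 4135 for Dntt and 488 for Zap70. Cd28 had a mean of 672 but ran from 24.4 to 3633, and it was higher on the plus arrays, as given below.

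No gene passed the test of the response difference across the whole table. Of 10583 genes, limma called 0 (0%) at an adjusted p below 0.05 in either direction, with a smallest adjusted p of 0.954, and limma on the 3 values alone also called 0. At an unadjusted p below 0.05 there were 223 genes (2.11%), against 529 that this threshold would pass if no gene differed, and 311 with the 3 values alone. Of these 223, 140 (1.32%) had a smaller response without Stat5a/b, here called weaker, and 83 (0.784%) had a larger one, called stronger. Sizes were compared without their sign, so both classes include genes whose response went opposite ways in the genotypes. Every gene described below as weaker or stronger is therefore named by its size and its values, as not passing. Where the plus or minus arrays of the genotypes are said to overlap or not, the share of all genes with that pattern was not counted.

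The precision of the comparison was limited by 3 sets. The SE of a response difference had a median of 0.35, and the 95% interval reached a median of 0.77 to each side (0.54 to 1.13 from the 10th to the 90th percentile of genes, log2). The estimate lay within 1 of zero for 10357 genes (97.9%), and among the 226 beyond it 147 had the same sign in all sets. Response differences in set B had an SD over genes of 1.03, against 0.37 in set A and 0.35 in set C. Over genes, which are no independent replicates of each other, Pearson's r was 0.19 between sets A and B, 0.06 between A and C and -0.03 between B and C. An exact sign test over 3 sets cannot go below p = 0.25 (two-sided).

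Beside this, the response shared by both genotypes was large. The mean of the control and knockout responses was called by limma in 4023 genes (38%), with 1867 higher (17.6%) and 2156 lower (20.4%) in the plus arrays. Controls alone gave 1119 higher (10.6%) and 1225 lower (11.6%) genes, knockouts alone 956 (9.03%) and 1029 (9.72%). In all, 1410 genes were called in both genotypes, and 0 of them in opposite directions. The log2 ratio of 3′ to 5′ beta-actin control signals, a sign of RNA quality, was higher on the plus array than on its minus partner in 6 of 6 pairs, by 0.24 to 1.63, and that of Gapdh in 5 of 6. Over sets A and C the beta-actin ratio was 0.25 to 2.14, and in set B it was 4.30 to 5.78. With the beta-actin ratio in the fit the mean response was called in 1657 genes instead of 4023. The number was 1597 without the block for the set, 2644 without set A and 1744 without set C. It was higher without set B, at 4837, without the knockout plus array of that set, at 4506, and with array weights, at 5856. Fewer cells of a type and less RNA per cell cannot be told apart in such bulk samples. Over the 4023 genes, the knockout response was the smaller one in 2215 (55.1%), and turned so that a negative value means weaker the median response difference was -0.05 (by set, A to C: -0.04, -0.07 and -0.04), against a median response of 0.77. Leaving out 1 array turned the sign of that median in 4 cases: 0.04 without the knockout plus and 0.01 without the knockout minus of set A, 0.0047 without the control plus of set B and 0.02 without the knockout plus of set C.

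**Figure D1:**
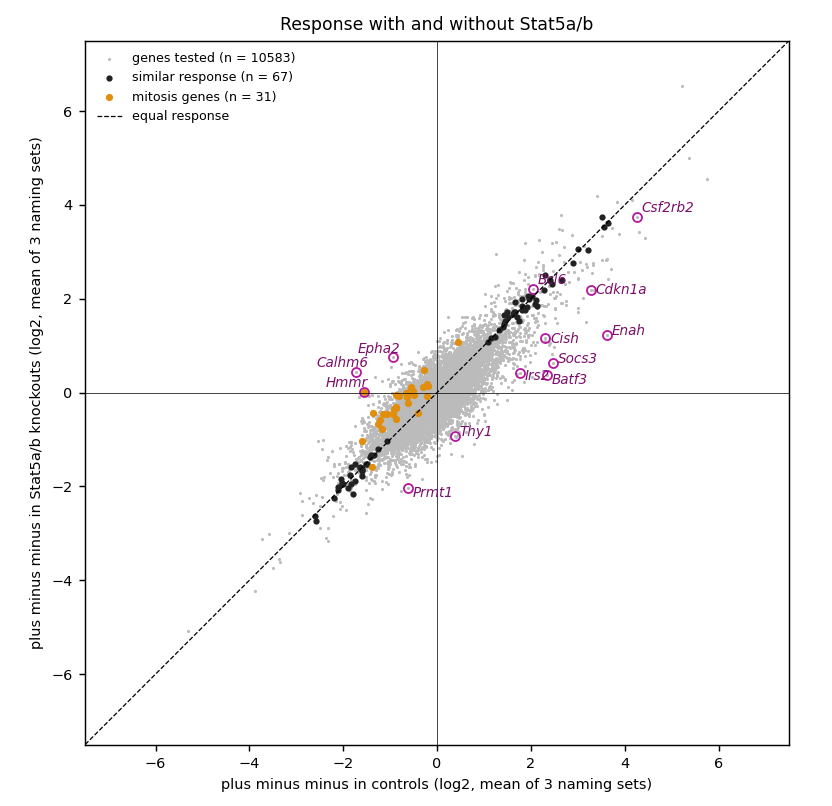
Plus less minus (log2) in controls on the horizontal axis and in Stat5a/b knockouts on the vertical axis, each the mean of 3 sets, for the 10583 genes tested (grey). The 67 genes of similar response (black) lie along the dashed line of equal response, the 31 mitosis genes (orange) lie mostly above it, and Cish (2.31 against 1.16), Socs3, Irs2, Batf3 and Enah lie below it.

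On the list of STAT5 and cytokine feedback targets, the feedback inhibitors Cish and Socs3 had smaller plus responses in the knockouts than in the controls. Bcl6, Spred1 and Cd44 rose in both, and no response difference passed the test. For the feedback inhibitor Socs2 the size of the difference depended on the probe set, as given below. The list, here called the STAT5 list, has 27 genes, among them the RAS pathway inhibitor Spred1 and the immediate early gene Egr1. It is thus wider than STAT5 targets alone. Of the 27 genes, 24 passed the level filter. In these 24 genes the plus response was called higher in 8 control and 7 knockout genes (backgrounds 10.6% and 9.03% of all genes) and lower in 3 and 4 (backgrounds 11.6% and 9.72%), of which the control share was near its background. The median response difference was -0.18 (by set, A to C: -0.11, -0.48 and -0.23), beside -0.02 over all genes tested. Leaving out 1 array moved it to -0.36 (control minus of set B), -0.33 (knockout plus of set C), -0.30 (knockout plus of set A), -0.28 (knockout minus of set C) and -0.11 (control minus of set A), and by less than 1.5 times for the other 7 arrays. The response difference was below zero in all sets in 7 of the 24 (background 12.7% of all genes) and above zero in 1 (background 14.9%), and 4 had an unadjusted p below 0.05, each of them lower (background 1.19%): Cish, Irs2, Socs3 and Cdkn1a. The list was written with earlier results of these data known, so these counts describe it.

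Cish (chr9:107296659-107302784, GRCm38.p6) encodes a SOCS-family protein that binds activated cytokine receptors and dampens STAT5 signalling. Its signal on the control arrays of sets A, B and C was 577, 795 and 385 minus and 2041, 4960.4 and 2446 plus. On the knockout arrays it was 327, 446 and 387 minus and 833, 1109.9 and 777 plus. Every plus array was thus above its minus partner in both genotypes, the minus arrays of the genotypes overlapped, and each knockout plus array lay below each control plus array. Cish rose by 2.31 ± 0.24 in controls (limma, adjusted p = 1.1e-04) and by 1.16 ± 0.24 in knockouts (adjusted p = 0.0070), with a response difference of -1.15 ± 0.33 (limma, unadjusted p = 0.0050, adjusted p = 0.954).

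Socs3 (chr11:117966079-117970336) encodes a feedback inhibitor of JAK kinases and of gp130-type receptors. Its signal was 158, 486 and 450.3 on control minus arrays of sets A, B and C and 1653, 2688 and 1769 on control plus arrays. Knockout minus arrays gave 123, 729.7 and 285, and knockout plus arrays 804, 373 and 378. The plus arrays of the genotypes did not overlap, and in set B the knockout plus array lay below its minus partner. The rise was 2.48 ± 0.48 in controls (limma, adjusted p = 0.0043), while the knockout value of 0.63 ± 0.48 did not pass (adjusted p = 0.39), and the response difference was -1.85 ± 0.68, or -1.12 without set B. A second Socs3 probe set gave -1.93 and the dimmest one -0.95.

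Irs2 (chr8:10984681-11008929) encodes an adaptor that links insulin and cytokine receptors to PI3 kinase. Control signals were 63.5, 74.1 and 53.6 minus and 171, 529.6 and 274 plus in sets A, B and C. Knockout signals were 63.9, 109 and 64.7 minus and 52.1, 177 and 143 plus. The highest knockout plus array lay just above the lowest control plus array, so these groups overlapped, but within each set the control plus array was the higher one. Irs2 rose by 1.78 ± 0.30 in controls (limma, adjusted p = 0.0020), had a knockout value of 0.41 ± 0.30 (adjusted p = 0.36) and a response difference of -1.36 ± 0.42.

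Cdkn1a (chr17:29090979-29100722), which encodes the CDK inhibitor p21, rose in both genotypes, by 3.28 ± 0.33 in controls and 2.20 ± 0.33 in knockouts (limma, adjusted p = 1.0e-04 and 0.0013). Its response difference of -1.08 ± 0.46 had opposite signs by set, at -0.97, -2.70 and 0.43, and was -0.27 without set B. The plus arrays overlapped, at 8281, 10851 and 6566 in controls and 7268, 4168 and 6717 in knockouts.

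Socs2 (chr10:95383903-95417321), another SOCS-family inhibitor and a classical STAT5 target, is a case where the choice of probe set decides the value. The probe set with the highest mean over all arrays, which represents the gene in the table, gave a response difference of -0.53 ± 0.37. Another Socs2 probe set, whose mean fell under the level filter, had signals of 35.9, 48.4 and 36.7 on control minus arrays and 249.3, 394 and 579 on control plus arrays of sets A, B and C. On knockout arrays it had 21.6, 8.71 and 17.8 minus and 30.0, 1.52 and 26.3 plus. So its signal was high on the control plus arrays and low on the other 9, and the genotypes did not overlap in either the minus or the plus arrays. Its response was 2.54 ± 0.33 in controls and 0.05 ± 0.33 in knockouts, a difference of -2.48 ± 0.46 with the same sign in all sets (-1.84, -2.69 and -2.93), and a further probe set, also under the filter, gave -2.17.

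A pair of further genes of the STAT5 list were left out by the level filter because they were dim on most arrays other than the control plus ones. They are described after their values were seen. Il2ra encodes the alpha chain of the IL-2 receptor. Its signals on control arrays were 27.9, 8.94 and 2.83 minus and 275, 59.1 and 179 plus, and on knockout arrays 20.1, 3.69 and 4.32 minus and 21.3, 4.62 and 27.3 plus. The plus response was thus 2.04 ± 0.33 in controls and 0.26 ± 0.33 in knockouts, a difference of -1.78 ± 0.47. Ccn3, also known as Nov, encodes a secreted matrix protein. It had 1.69, 14.8 and 4.24 on control minus and 61.4, 149.7 and 165 on control plus arrays, beside 4.55, 30.6 and 14.9 on knockout minus and 10.6, 7.77 and 53.9 on knockout plus arrays. Its response was 1.96 ± 0.33 in controls and 0.15 ± 0.33 in knockouts, a difference of -1.81 ± 0.47. For both genes the knockout plus arrays lay below all control plus arrays. Socs2, Il2ra and Ccn3 were looked up here for their values, which are a description with no test.

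**Figure D2:**
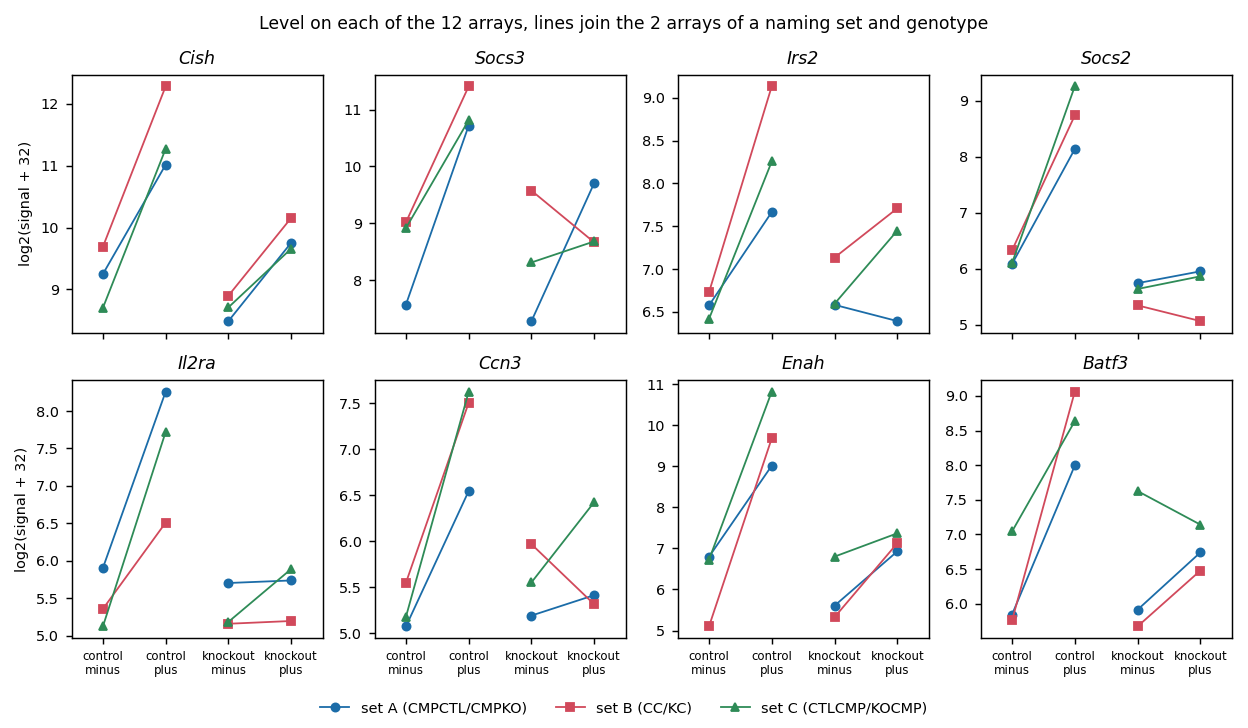
Level (log2(signal + 32), vertical axis) of 8 genes on each of the 12 arrays, by group, with a line joining the minus and plus array of a set and genotype. Socs2 is drawn from the probe set with a response difference of -2.48, not from the probe set that represents the gene in the table (-0.53). That Socs2 probe set, Il2ra and Ccn3 lay under the level filter and were drawn after their values were seen. For Cish, Socs3, Socs2, Il2ra, Ccn3, Enah and Batf3 each control plus array lies above each knockout plus array, while for Irs2 these groups overlap. The share of all genes tested with such a separation was not counted.

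Among the other genes of the STAT5 list, Bcl6, Spred1, Cd44 and Id2 rose in both genotypes. Bcl6 (chr16:23965050-23988866), a transcriptional repressor gene known to be repressed by STAT5, had signals of 234, 232 and 229 on control minus and 1003, 1532 and 770.3 on control plus arrays, and 331, 279.7 and 336 on knockout minus and 1326, 3616 and 800.2 on knockout plus arrays. It rose by 2.05 ± 0.37 in controls and by 2.21 ± 0.37 in knockouts (limma, adjusted p = 0.0028 and 0.0024), and the interval of the difference, 0.16 ± 0.52, is too wide to call the sizes alike. Spred1, an inhibitor of the RAS pathway, rose by 1.48 and 1.34, and Cd44, an adhesion receptor, by 0.89 and 0.93. Pim1, a survival kinase, had response differences of 0.34, -2.47 and -0.34 in sets A, B and C, so its estimate of -0.82 ± 0.46 came from set B. Id2, an inhibitor of basic helix-loop-helix factors, had a response difference of -0.06 ± 0.35. The response difference was also near zero for Mcl1 (-0.03 ± 0.19) and Bcl2l1 (-0.14 ± 0.30), survival genes of the BCL2 family, and for the cyclin gene Ccnd2 (0.12 ± 0.31), and for Pim1 and these 3 genes the response was called in neither genotype.

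Promoter sequences are shown for 3 genes with the motif TTCNNNGAA, the palindromic element that STAT dimers are known to recognise, in the 250 bases before a RefSeq start site (GRCm38.p6, 5′ to 3′ on the gene's strand). Capitals mark the motif, which reads the same on both strands. Socs3 and Batf3 were weaker without Stat5a/b, and Bcl6, with 2 start sites, responded in both genotypes.
Socs3, chr11:117969367-117969616, minus strand: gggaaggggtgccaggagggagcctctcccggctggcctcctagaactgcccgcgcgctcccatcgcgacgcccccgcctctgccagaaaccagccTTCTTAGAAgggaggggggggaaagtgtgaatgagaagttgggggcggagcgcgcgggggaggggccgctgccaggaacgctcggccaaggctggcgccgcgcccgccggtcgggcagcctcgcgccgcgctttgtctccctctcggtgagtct
Batf3, chr1:191098164-191098413, plus strand: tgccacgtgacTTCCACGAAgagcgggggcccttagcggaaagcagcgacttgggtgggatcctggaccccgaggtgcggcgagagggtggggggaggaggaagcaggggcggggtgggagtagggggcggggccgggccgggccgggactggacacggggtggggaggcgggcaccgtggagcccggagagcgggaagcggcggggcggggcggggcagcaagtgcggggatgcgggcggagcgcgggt
Bcl6, chr16:23988853-23989102, minus strand: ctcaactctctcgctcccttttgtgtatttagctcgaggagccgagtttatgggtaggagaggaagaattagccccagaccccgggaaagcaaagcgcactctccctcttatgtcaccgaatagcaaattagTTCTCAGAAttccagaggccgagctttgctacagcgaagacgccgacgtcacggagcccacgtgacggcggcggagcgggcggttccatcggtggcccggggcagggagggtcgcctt
Bcl6, chr16:23981284-23981533, minus strand: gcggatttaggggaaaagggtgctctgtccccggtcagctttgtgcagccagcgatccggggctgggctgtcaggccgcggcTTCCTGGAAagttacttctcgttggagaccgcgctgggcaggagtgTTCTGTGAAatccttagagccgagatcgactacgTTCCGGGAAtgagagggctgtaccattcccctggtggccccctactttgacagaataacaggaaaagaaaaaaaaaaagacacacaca
The windows of Socs3 and the second of Bcl6 lie inside the annotated span of the gene, which reaches farther upstream. The motif starts 154 bases before the start used for Socs3 and 239 before that of Batf3, and the last window holds 3. It occurred in 617 of the 8678 tested genes with a promoter entry (7.11%). Among genes at an unadjusted p below 0.05 it occurred in 11 of 106 weaker (10.4%) and 4 of 59 stronger ones (6.78%). It occurred in 2 of 18 genes of the STAT5 list (11.1%) and in 11 of 54 genes of similar response described below (20.4%). Of the other genes described, Csf2rb2, Gimap8 and Slc7a11 also had 1 match each in the window. The windows of Cish, Irs2 and Il2ra held no match, which says only that these letters are not in them. Binding was not measured.

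The beta chains of receptors that activate STAT5 rose in both genotypes. Csf2rb, the shared beta chain of the GM-CSF, IL-3 and IL-5 receptors, rose by 2.81 in controls and 2.36 in knockouts (limma, adjusted p = 7.6e-05 and 2.8e-04). Csf2rb2, the mouse IL-3-specific beta chain, rose by 4.26 and 3.74, from 261 to 501 on control minus arrays to 5142 to 11758 on control plus arrays, and from 244 to 381 to 2894 to 7334 in knockouts. The response differences were -0.45 ± 0.38 and -0.52 ± 0.47, and the alpha chains Csf2ra and Il3ra had -0.27 ± 0.35 and -0.18 ± 0.39.

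Outside the STAT5 list, the gene with the smallest unadjusted p was Enah (chr1:181896384-182027556), which encodes an Ena/VASP protein that extends actin filaments. Its signals were 79.2, 2.33 and 73.7 on control minus and 485, 788 and 1769.9 on control plus arrays of sets A, B and C. On knockout arrays they were 16.7, 8.09 and 79.4 minus and 89.7, 108 and 133 plus. Each knockout plus array lay below each control plus array by a wide margin, although the size of the difference ranged from -0.89 in set A to -3.52 in set C. Enah rose by 3.63 ± 0.40 in controls (limma, adjusted p = 2.0e-04), had a knockout value of 1.23 ± 0.40 that just missed the threshold (adjusted p = 0.053) and a response difference of -2.40 ± 0.57 (unadjusted p = 0.0013). Of its 5 other probe sets, all dimmer, 4 also gave a response difference below zero (-0.52 to -1.16) and 1 gave 0.04.

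Batf3 (chr1:191098414-191108943), a transcription factor gene known for its role in cross-presenting dendritic cells, was at 25.4, 22.1 and 99.9 on control minus and 223, 503 and 366 on control plus arrays. It was at 28.2, 19.0 and 166 on knockout minus and 74.9, 57.1 and 109 on knockout plus arrays, below all control plus arrays. It rose by 2.35 ± 0.38 in controls (limma, adjusted p = 0.0018) and had 0.38 ± 0.38 in knockouts. The dendritic cell list as a whole did not share this: its 9 tested members had a median response difference of 0.02.

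The other genes named as weaker by their p lay at lower or mixed levels. Epha2, an ephrin receptor tyrosine kinase gene, had 77.2, 119 and 139 on control minus and 15, 40.4 and 84 on control plus arrays, but 90.8, 34.0 and 120.2 on knockout minus and 109, 176 and 171 on knockout plus arrays. Its signal was thus lower on plus arrays of controls and higher on those of knockouts in each set, with a response difference of 1.70 ± 0.46. Calhm6 had the same pattern, with responses of -1.72 ± 0.46 in controls (limma, adjusted p = 0.020) and 0.45 ± 0.46 in knockouts. Ager, the receptor for advanced glycation end products, gave 1.85 and 0.22, and Clec10a, a macrophage lectin, 0.87 and -0.58. Gimap8, a GTPase gene of the GIMAP family, rose in controls (adjusted p = 0.0071) and had 0.13 in knockouts, though without set B the response difference moved from -1.38 to -0.69. For Enah, Batf3, Cish, Epha2, Calhm6, Irs2, Socs3 and Gimap8 the sign of the response difference was kept in every alternative run for that gene. Each of these genes had the same sign in all sets, a condition for naming a gene by its small p. Leaving out a set could thus not turn the sign, and fits that change only the error leave the estimate as it is.

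Stronger responses without Stat5a/b included genes whose rise in controls was already large. Lpl (chr8:68880555-68906932), which encodes lipoprotein lipase, had signals of 134, 81.9 and 209 on control minus and 3314, 5104 and 13609.8 on control plus arrays. Knockout minus arrays gave 104, 146 and 107, and knockout plus arrays 9651, 20574 and 13474. The knockout plus array was higher in sets A and B and level with the control in set C, where the difference of responses, 0.78, came from the minus arrays. Lpl rose by 5.22 in controls and 6.54 in knockouts, a response difference of 1.32 ± 0.56 (limma, unadjusted p = 0.035).

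Cd28 (chr1:60746388-60773359), a costimulatory receptor gene, was at 24.4, 111 and 71.6 on control minus and 497, 687 and 505 on control plus arrays. It was at 57.7, 186 and 61.2 on knockout minus and 1119, 3633 and 1115 on knockout plus arrays, above all control plus arrays. Its rise was 2.65 ± 0.29 in controls and 3.79 ± 0.29 in knockouts, a response difference of 1.14 ± 0.41. Tnfsf9, which encodes the 4-1BB ligand, likewise did not overlap on plus arrays, with 234, 341 and 338 in controls and 539, 563 and 675 in knockouts, and its responses were 0.65 and 1.60 (limma, adjusted p = 0.070 and 0.0012). Slc7a11, the cystine transporter gene, rose by 3.40 and 4.19, and Clec4d, a myeloid lectin gene, by 1.30 and 2.30.

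Prmt1 (chr7:44976755-44986420), which encodes the main arginine methyltransferase of histone H4 and RNA-binding proteins, was the stronger gene with the smallest p and moved downward. Its signals were 1658, 871 and 1810.1 on control minus and 1142, 381 and 1546 on control plus arrays, and 1695, 1017 and 3317 on knockout minus and 701, 162 and 604 on knockout plus arrays. It lay lower on plus arrays in each set and genotype, with a control value of -0.63 ± 0.26 (limma, adjusted p = 0.10) and a fall of 2.02 in knockouts (adjusted p = 5.8e-04). The response difference was -1.40 ± 0.37 (unadjusted p = 0.0026). Thy1, Zap70 and Naaa had values above zero in controls and below zero in knockouts, at 0.37 and -0.92, 0.47 and -0.55, and 0.54 and -1.34, and Ccdc122 had 0.22 and 1.33.

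Cell cycle genes were called lower in the plus arrays more often in controls than in knockouts, a difference in count that was not itself tested. The cell cycle lists are described out of 38 gene lists. Of 31 mitosis genes tested, 17 were called lower in the plus arrays of controls (background 11.6% of all genes) and 0 higher (10.6%). In knockouts 3 were called lower, which equals the background share of 9.72%, and 1 higher (9.03%). Their median response was -0.82 in controls and -0.09 in knockouts. The median response difference was 0.57 (by set, A to C: 0.32, 1.20 and 0.15), beside -0.02 over all genes. It was above zero in all sets in 21 of the 31 and below zero in all sets in 0 (backgrounds 14.9% and 12.7%), and 5 had an unadjusted p below 0.05, each of them higher (background 0.917%). In sets A and C together, 24 of the 31 were above zero in both (background 29.7%) and 0 below zero in both (background 20.2%). Over the 28 alternatives the median ran from 0.23 to 0.79, above zero in each. Some of these, such as the fits without the block or without the variance trend, cannot change it. Without set B the median was 0.23, and without the knockout plus array of that set it was 0.35. That array also had the highest log2 ratio of 3′ to 5′ Gapdh control signals, 6.09 beside 4.72 to 4.83 on its set partners, and the part of this ratio in the list's median was not tested.

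Nuf2, a kinetochore gene, had signals of 1779.6, 1009 and 2220.3 on control minus and 744, 286 and 958 on control plus arrays of sets A, B and C. Knockout arrays had 1996, 496 and 2212 minus and 1125, 601 and 1306 plus. In set B the knockout plus array was above its minus partner, and in sets A and C the knockout plus signal lay between control plus and minus. Nuf2 fell by 1.37 in controls (limma, adjusted p = 0.0024) and had -0.43 in knockouts, a response difference of 0.94 ± 0.34. Prc1, a spindle midzone gene, fell by 0.82 in controls and had -0.07 in knockouts. Hmmr, a spindle-associated gene, had the largest estimate of the list, 1.59 ± 0.67, but it came from set B, and without that set it was 0.33. Top2a (-0.66 and -0.01), Plk1 (-1.21 and -0.58) and Cdk1 (-1.06 and -0.45) had the same order of control and knockout responses, while Ube2c and Aurka had knockout responses slightly below those of controls.

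S phase and replication genes leaned the same way but by less. Of 34 tested, 19 were called lower in plus arrays of controls (background 11.6%) and 11 in knockouts (background 9.72%), with 0 higher in either (10.6% and 9.03%), and median responses were -0.68 and -0.48. The median response difference was 0.33 (0.18, 0.92 and 0.11 by set), and 15 were above zero in all sets and 0 below (backgrounds 14.9% and 12.7%). The median was 0.12 to 0.53 over the 28 alternatives, with 0.12 without the control plus array of set B, 0.15 without set B and 0.53 without set C. Gins1, a replication helicase subunit gene, fell by 1.48 in controls (limma, adjusted p = 0.0047) and had -0.53 in knockouts, with signals on plus arrays of 1029, 630.1 and 1107 in controls and 1396, 2775 and 1408 in knockouts that did not overlap. Dut, which keeps uracil out of DNA, fell by 1.51 in controls and 0.83 in knockouts (adjusted p = 0.0010 and 0.024). Cdkn2c, a CDK4 and CDK6 inhibitor gene, had the same shape, with plus signals of 1269, 668 and 1728 in controls and 2197, 1959.8 and 2225 in knockouts and responses of -1.01 (limma, adjusted p = 0.0056) and -0.10.

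**Figure D3:**
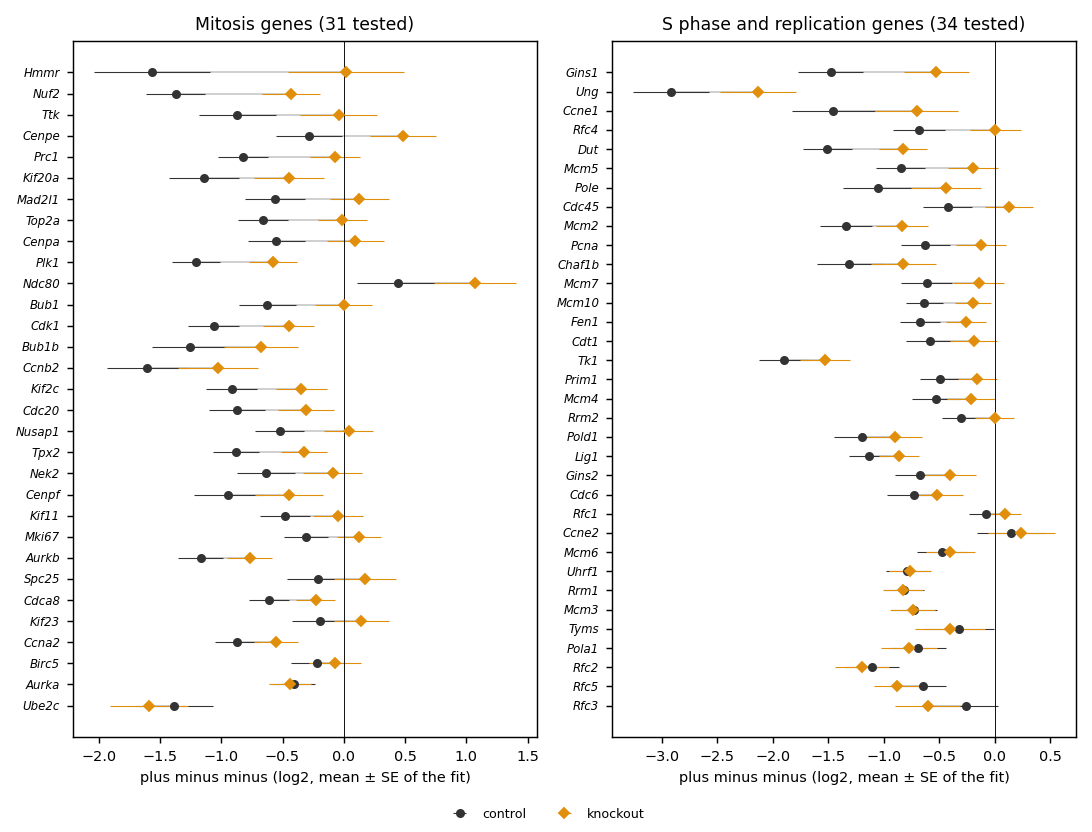
Plus less minus (log2, horizontal axis) of each tested mitosis gene (left) and S phase gene (right) in controls (circles) and knockouts (diamonds), with the SE of the fit, sorted by the response difference. In 29 of 31 mitosis genes and 27 of 34 S phase genes the knockout value lies to the right of the control value.

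Among the 38 gene lists, those with a lower median response difference than all genes included secondary granule and neutrophil genes. Their 19 tested members had a median of -0.56, with set values of -0.09 in A, -1.92 in B and -0.02 in C, and it was 0.04 without the knockout plus array of set B and -0.14 without its control plus array. Ltf, the lactoferrin gene, had 238 on that array beside 5957 on its minus partner, and 569 and 2760.1 on the knockout plus arrays of sets A and C. On that array pair the log2 ratio of 3′ to 5′ Gapdh control signals also differed from the other sets: the response difference of this ratio was 1.38 in set B, 0.14 in set A and -0.19 in set C (0.29 in set A, 0.29 in B and -0.35 in C for beta-actin). The list's median was -0.51 when the fit held the beta-actin ratio, and the part of the Gapdh ratio was not tested. Without single other arrays it reached -0.89 (control minus of set B), -0.99 (knockout plus of set A) and -0.84 (knockout plus of set C). GIMAP GTPases (5 tested) had a median of -0.51, with set values of -0.10 in A, -1.10 in B and -0.40 in C. Chemokines (13 tested) had a median of -0.37, with set values of -0.26 in A, -0.95 in B and 0.08 in C. AHNAK, annexin and S100 genes (19 tested) had -0.29, with 6 below zero in all sets (background 12.7%) and 0 above (background 14.9%). This median was -0.09 without set B, with 10 genes lower and 9 higher, -0.44 without set A, and -0.06, -0.16, -0.17 and -0.55 without the control plus or the knockout plus array of set B or the knockout minus or the control plus array of set A. Ahnak itself, a giant scaffold protein gene, rose by 4.31 in controls and 3.42 in knockouts, with plus signals of 4459, 8222 and 10893 against 4209, 2952 and 7832, which overlapped.

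**Figure D4:**
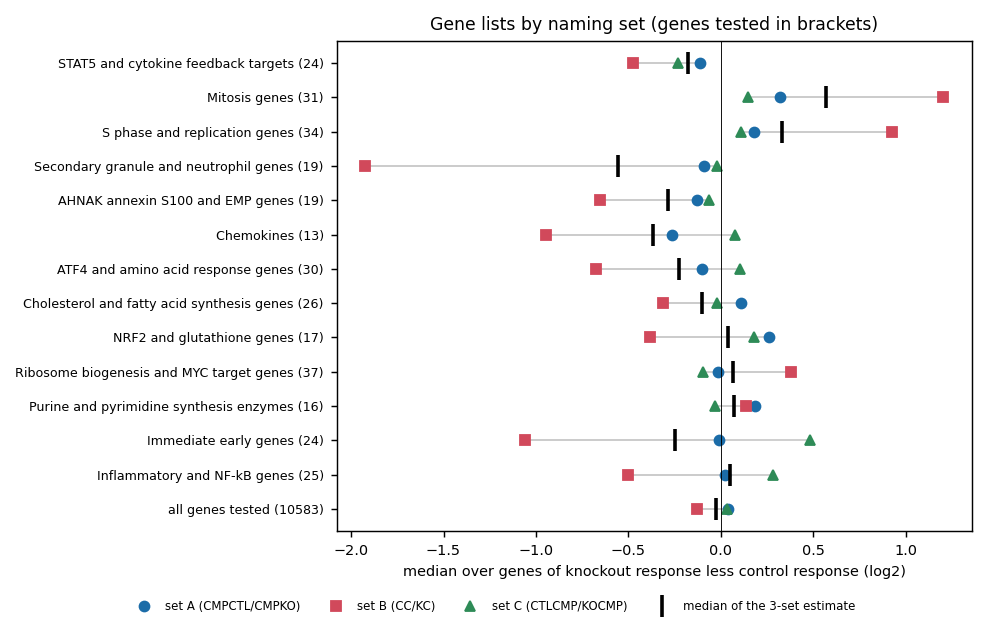
Median over genes of the response difference (log2, horizontal axis) of 13 gene lists and of all genes, in sets A, B and C (symbols) and for the estimate from all 3 sets (bar). The mitosis and S phase medians lie above zero and the STAT5 list medians below zero in each set, and set B lies farthest from zero for most lists.

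Similar responses could be shown for a limited number of genes. A response was called similar when its mean over genotypes was called and at least 1 (log2) and the 95% interval of the response difference lay within 1 of zero and within 0.5 times that mean. Of 1182 genes with such a mean, 67 (5.67%) met this, 38 higher and 29 lower in plus arrays, and all 67 were called in each genotype separately. The number moved with the setting: it was 6 with no block for the set, 162 without set B, 8 without set A and 0 without set C. A gene outside the 67 is not thereby different between genotypes.

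The arginine transporter gene Slc7a3 (chrX:101079146-101090452) had 46.4, 41.8 and 40.8 on control minus and 1346, 560.3 and 981 on control plus arrays, and 32.4, 61.3 and 35.0 on knockout minus and 1120.4, 598 and 989.6 on knockout plus arrays. It rose by 3.65 in controls and 3.62 in knockouts, and the interval of the difference ran from -0.996 to 0.934. Gpt2 (chr8:85492576-85528902), which encodes the mitochondrial alanine aminotransferase, rose by 3.56 and 3.52 (interval -0.69 to 0.61), with plus signals of 1602, 1842 and 1294 in controls and 1409.5, 1943 and 1254 in knockouts. The plus arrays of the genotypes overlapped for both genes. Lgals3, the galectin-3 gene, rose by 3.22 and 3.03, although its level differed between sets, from 1858 to 28022 on control plus and 2094 to 20797 on knockout plus arrays. Srxn1, an antioxidant enzyme gene of the NRF2 pathway, rose by 3.01 and 3.05, and Bmf, a pro-death BCL2-family gene, by 2.41 and 2.40.

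By role, cholesterol and fatty acid synthesis genes had 10 of 26 tested members with a mean response large enough for the rule, and 5 of these 10 were similar (background 5.67%), Hmgcs1, Idi1, Fdft1, Sc5d and Insig1, all of which rose. Fdft1, which encodes squalene synthase, rose by 2.27 and 2.18 (interval of the difference -0.62 to 0.44). The ATF4 and amino acid response list had 3 of 20 such members, Slc7a3, Slc38a2 and Eif4ebp1. Downward, 4 of 8 such purine and pyrimidine synthesis enzymes were similar, Cad, Dhodh, Gart and Prps2, with falls of 1.63 and 1.59 for Gart, and 3 of 13 such ribosome biogenesis and MYC target genes, Polr1b, Nop16 and Cad. Kcng1, a potassium channel subunit gene, fell by 2.57 and 2.74 and the histone gene H3c4 by 2.60 and 2.63, with H3c4 signals of 144, 171 and 272 on control plus and 139, 223 and 207 on knockout plus arrays. Sh2b3, the adaptor LNK that restrains JAK2 at cytokine receptors, rose by 1.82 and 1.84.

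**Figure D5:**
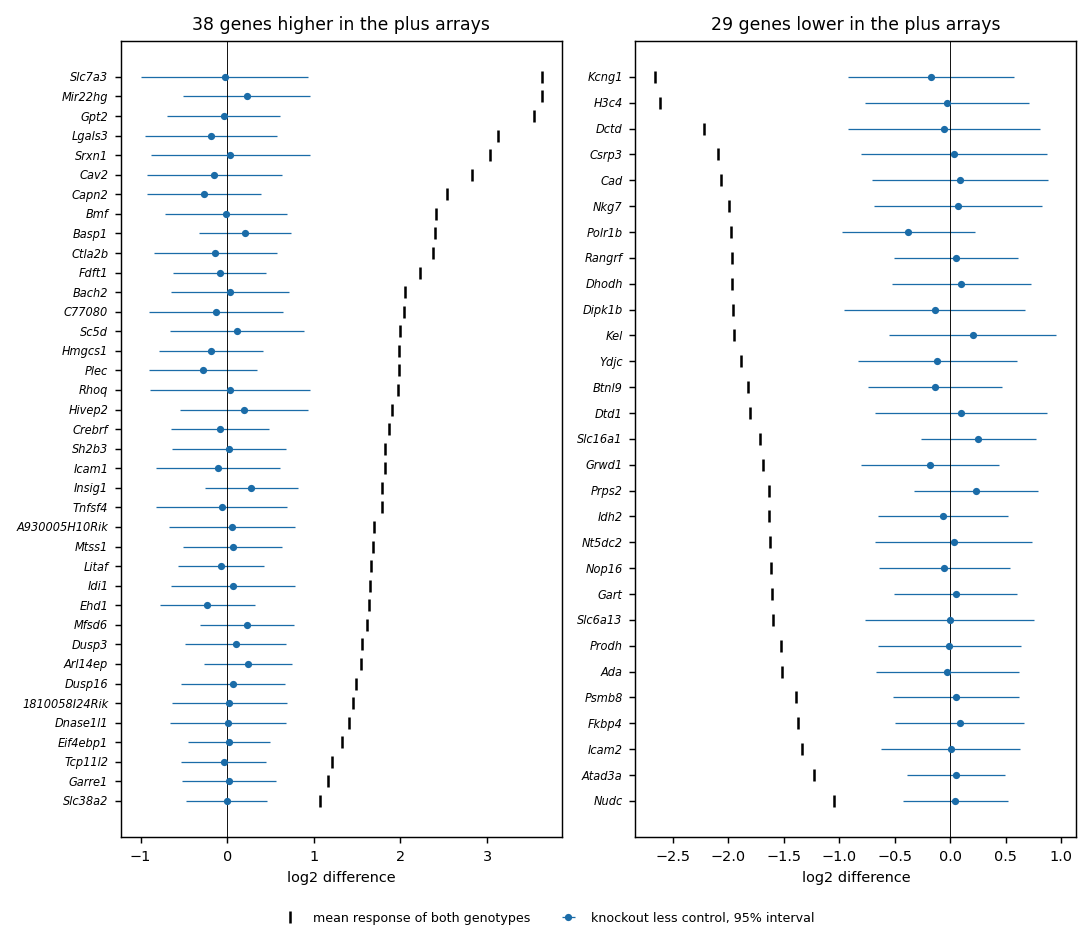
Response difference with its 95% interval (blue, log2) and mean response of both genotypes (black bar) of the 67 genes of similar response, 38 higher (left) and 29 lower (right) in plus arrays. Each interval lies within 1 of zero, and the mean responses run from 1.07 to 3.63 upward and from -1.05 to -2.66 downward.

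ATF4 and amino acid response genes, which serve the response to scarce amino acids, were mostly higher in plus arrays and ribosome biogenesis genes mostly lower, in both genotypes. Of 30 ATF4 list genes tested, 27 were called higher in controls (background 10.6%) and 23 in knockouts (background 9.03%), with median responses of 1.44 and 1.12. Within the list, Asns, which encodes asparagine synthetase, rose by 2.53 in controls and 3.22 in knockouts, while Ddit3, the CHOP gene, rose by 2.05 and 1.09. For Asns the plus signals overlapped (6287 to 8743 in controls, 5839.9 to 8665 in knockouts) and the minus signals did not (1150.0 to 1426 and 644 to 1122). Ribosome biogenesis and MYC target genes were called lower in 24 of 37 in controls (background 11.6%) and 25 in knockouts (background 9.72%), with median responses of -0.88 and -0.73. Immediate early genes were called lower in 10 of 24 in each genotype (backgrounds 11.6% and 9.72%), and Egr1, an immediate early transcription factor gene of the STAT5 list too, fell by 3.16 and 2.98. Inflammatory and NF-kB genes were called higher in 10 of 25 in controls and 11 in knockouts (backgrounds 10.6% and 9.03%). The difference of these counts between genotypes was not tested.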

How the data were processed

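The deposited values are intensity signals per probe set, which the authors made with MAS5 per the submitters' processing notes, and the version is not given in the sources used here. The table was used as deposited: every array has a mean of 500 after trimming 2% at each end. Of 45101 probe sets, 34958 had 1 gene symbol in the supplied platform table, 932 had several and 9211 were not listed, and 34754 matched the RefSeq annotation of GRCm38.p6. For a gene with several probe sets, the one with the highest mean log2(signal + 32) was used. Genes whose mean lay under 6.76, which is the median over probe sets, were dropped, leaving 10583 of 18194 genes. A fold change on this scale understates the change of dim genes. A single limma fit (3.58.1, R 4.3.3) over 12 arrays held the 4 groups and the set as a block, with eBayes and a variance trend (6 residual and 5.78 prior degrees of freedom), two-sided tests and Benjamini-Hochberg adjustment over all genes at 0.05. Sets rest on the title form alone. Named genes were Stat5a and Stat5b, the STAT5 list, the receptor chains, the 8 weaker and 8 stronger genes with the smallest p, the 10 similar genes with the largest mean response and up to 3 genes a list with the smallest p, and others named in the text were chosen after their values were seen. The genes, lists and tests were chosen with earlier results of these data known. The chain was tested on simulated data. The number of arrays limits the precision.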

Additional observations from a re-analysis of the deposited data

Results flagged for a closer look

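In 7 of the 148 named genes the control response went one way and the knockout response the other way in all sets. The share of all genes with this pattern was not counted. For each of the 7 the difference between genotypes did not pass the test over all genes, and the opposite movement itself was not tested. Some moves from minus to plus were small, such as 445 to 455 for Calhm6 in knockouts of set C. Another was 141 to 150 for Clec10a in controls of set A. Calhm6 had a response difference of 2.17 (knockout less control, log2), Epha2 1.70, Gm11110 1.21 and Vta1, an endosomal sorting gene, 0.73, each lower in plus arrays of controls and higher in those of knockouts. Ccl6, a myeloid chemokine gene, had -1.61, Clec10a -1.44 and Ier3, an immediate early gene, -1.16, each higher in plus arrays of controls and lower in those of knockouts. Ccl6 signals were 169.6, 501 and 514 on control minus, 233, 1396 and 1244 on control plus, 362, 351 and 565 on knockout minus and 242, 159 and 461 on knockout plus arrays of sets A, B and C. Vta1 signals were 2163, 1611 and 2651 on control plus and 3057, 2986 and 3278 on knockout plus arrays, which did not overlap. The genes were looked for among the named genes, some of which had been named for a small p and the same sign in all sets, so the pattern is a description.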

How the results depend on the processing

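No alternative led limma to call a gene for the response difference: the count was 0 in all 30 that were run, with 36 to 984 genes or probe sets at an unadjusted p below 0.05. Without the replicate block for the set, the count of genes with similar response was 6 instead of 67 (all 6 of them among the 67) and the size of the response without Stat5, the median response difference, turned to the direction of the response, was -0.087 instead of -0.05. The count was 132 with 3 values a gene, 243 with array weights, 39 with the KC- array as a control and 142 with the beta-actin ratio as covariate, and 52, 61, 31 and 60 of these were shared with the 67. Leaving out a set or an array moved it between 0 (without set C) and 162 (without set B). It was also 8 without set A, and single arrays moved it by more than 1.5 times at 28 to 43 for 9 arrays and at 105 without the knockout plus array of set B. The size was -0.091 with arrays centred on medians, -0.084 with quantile normalization, -0.103 with the KC- array as a control and -0.160 with the beta-actin covariate, and -0.138 to 0.045 when a set or an array was left out. The cause of these shifts was not tested. Centring on medians moved the median response difference of all genes from -0.02 to 0.11, that of the mitosis list to 0.70 and that of the STAT5 list to -0.05. Of 148 named genes, 106 kept the sign of the response difference in every setting run for them. Some of the 148 had been chosen for having the same sign in all sets, so leaving out a set could not turn theirs. The 95% interval of a response difference reached a median of 0.77 to each side (log2), which limits the differences that can be seen, and dim genes such as Socs2, Il2ra and Ccn3 have signals near the background of the array.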
